A study of Mus musculus with 10 samples.

Results

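The comparison described here set mouse 2-cell embryos after Ago2 knockdown (Ago2 kd) against control 2-cell embryos. Its members were chosen by sample label, 2 control and 2 Ago2 kd libraries, which are 4 of the 10 RNA-seq libraries of the series. Of 21437 genes in the expression table, 5525 reached 1 FPKM in 2 or more of these libraries and were tested, and 3384 of them reached it in all 4. FPKM scale the fragments of a gene by its exon length and by the mapped fragments of its library, so levels are per length.

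The series followed the maternal-to-zygotic transition with 2 libraries each of MII oocytes, 2-cell and 4-cell control embryos and 2-cell and 4-cell Ago2 kd embryos. Embryos came from superovulated F1 females, 7 weeks old, mated with F1 males, whereas the strain label of every library reads ICR. The genotype label of the controls is wild type and that of the knockdown embryos Ago2-kd. In the knockdown, zygotes received siRNA against Ago2 together with AGO2 antibody. A scrambled siRNA is named as the negative control, but the labels do not say whether the sequenced control embryos were injected with it. Total RNA was taken from blastomeres freed of the zona pellucida, and neither the number of embryos per library nor their origin from separate collections is stated. The p-values therefore measure the spread between these libraries, which may be technical. The values of the MII columns carry a limit. For genes also listed in the study's supplementary tables, the split between the 2 MII libraries differs there from the deposited one while their sum is the same, so oocyte levels are given below only as the mean of both. The level of Ago2 was not analysed here, so the labels were not checked by their target.

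Argonaute 2 is the small-RNA-guided endonuclease of the RNA interference pathway. Loaded with an endogenous siRNA it can cut a matching transcript, and loaded with a microRNA it recruits TNRC6 proteins and, through them, deadenylases. The mouse 2-cell embryo still holds many transcripts stored by the oocyte, most of which are being degraded, while its own genome is being switched on.

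The marker genes of the stage were measured first. Genes known for the oocyte were still abundant, with summed levels of 12 genes between 5393 and 6443 FPKM in the 4 libraries. The 11 measured genes of the 2-cell transcription burst summed to 836.9 and 1209 FPKM in the controls and to 481.4 and 775.3 FPKM in the Ago2 kd libraries, against a mean of 103.1 FPKM in MII oocytes. Summed levels of 3 measured cumulus and granulosa genes were at most 1.78 FPKM, those of 6 blood genes at most 4.91 FPKM, and Foxl2, Ptprc and Hbb-bs were listed at 0. The 8 measured genes of the morula and blastocyst summed to 0.224 and 1.17 FPKM in the controls and to 6.01 and 9.72 FPKM after knockdown, without overlap. Of these, Cdx2, Nanog, Pdgfra and Fgf4 were listed at 0 in all 4 libraries, and the part of this difference in the results below was not tested. Across genes at 1 FPKM or more in all 4 libraries, log2(FPKM + 1) correlated with r = 0.894 between the 2 controls, 0.861 between the 2 Ago2 kd libraries and 0.846 to 0.891 between a control and an Ago2 kd library. These are descriptions across genes, which are not independent replicates. Of the 4 correlations between a control and an Ago2 kd library, the one of control replicate 2 with Ago2 kd replicate 1 (0.846) lay below that of the knockdown pair, and the others lay above it.

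In the deposited table, 193 genes carried exactly the same FPKM, above 0, in both 2-cell Ago2 kd columns, while each of the other 44 pairs of libraries shared at most 1 such value. Of the tested genes 106 were affected. The spread of these genes in the knockdown group is 0 by construction, so they were left out of the counts below unless stated, which leaves 5419 genes and 3299 at 1 FPKM or more in all 4 libraries. Exact zeros can also be failed estimates in this table, and for a gene at 0 in both libraries of a group the levels are given without a fold change.

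Knockdown and control embryos differed at a limited number of genes, in both directions, and the median change of all tested genes was -0.03 on the log2(FPKM + 1) scale. At an adjusted p below 0.05 (limma, Benjamini-Hochberg adjustment over 5525 genes), 42 genes rose, 0.76% of those tested, and 35 fell, 0.633%. Without the genes of equal knockdown values 37 and 35 remained. At an unadjusted p below 0.05, called higher or lower below, 224 of 5419 genes were higher (4.13%) and 249 were lower (4.59%). Both Ago2 kd libraries lay above both controls for 867 genes (16.0%) and below both for 932 genes (17.2%). These shares are the background against which every gene group is read. A comparison of 2 against 2 libraries cannot reach an exact permutation p below 0.333 for a single gene, so the calls rest on the spread pooled over genes and over all 10 libraries. When the model held the 4 two-cell libraries alone, no gene passed adjustment and the lowest adjusted p was 0.108, while 389 genes had an unadjusted p below 0.05. Because the MII libraries enter the pooled spread, the model was also fitted on the 8 embryo libraries. It passed 37 higher and 33 lower genes, and 52 of the 77 were among them. Of the genes named below, those that missed adjustment without the MII libraries were Gtf3a (adjusted p = 0.0514), Med27, Pdpk1, Pex11a, Cbx2 and Rac3 (0.0535), Fbxw19 (0.0539), Chdh (0.0587), Alyref (0.0752), Phb2 (0.0794), Ythdf3 (0.0912), Chtop (0.0959) and Gm7627 (0.136). All of these kept an unadjusted p below 0.05. In the other direction, Bmi1 (adjusted p = 0.00216), Ranbp9 (0.00234), Fbxl2 (0.00596) and Ift81 (0.0332) passed adjustment in the 8 embryo libraries but not with the MII libraries.

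**Figure D1:**
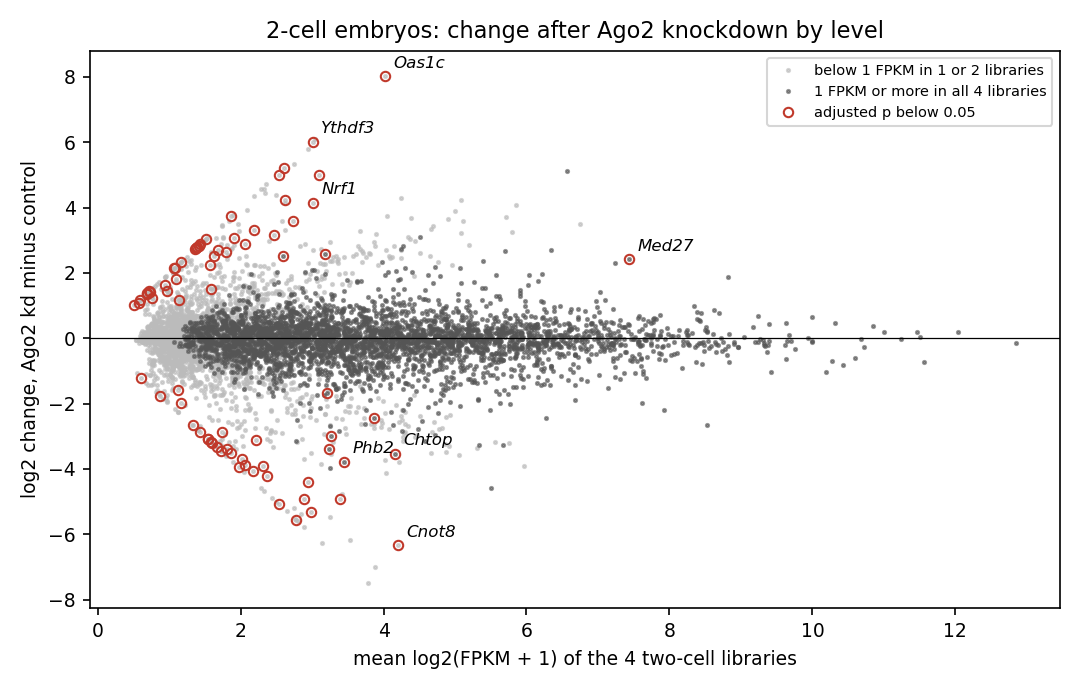
Each point is 1 of the 5525 tested genes, with the mean log2(FPKM + 1) of the 4 two-cell libraries on the x axis and the log2 change (Ago2 kd minus control) on the y axis. Red circles mark the 77 genes with an adjusted p below 0.05, of which 68 were below 1 FPKM in at least 1 library and lie along the edges of the cloud.

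Many genes past adjustment were near 0 in one group. Of the 42 that rose, 21 were below 0.1 FPKM in both controls, and of the 35 that fell, 14 were below 0.1 FPKM in both Ago2 kd libraries. Counted over all tested genes, 57 were below 0.1 FPKM in both controls and at 1 FPKM or more in both knockdown libraries, and 51 showed the opposite pattern. The mean of the MII oocyte libraries was at least 1 FPKM for 40 of the 57 and for 29 of the 51.

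Weight was therefore given to genes measured in every library. Among the 3299 genes at 1 FPKM or more in all 4 libraries, 48 were called higher (1.45%) and 87 lower (2.64%). Both Ago2 kd libraries lay above both controls for 519 of them (15.7%) and below for 546 (16.6%). Adjustment over all tested genes was passed by 2 that rose and 6 that fell, named next. When the model was fitted on genes at 1 FPKM or more in all 4 libraries alone, Prmt2 and Gm13084 passed (adjusted p = 0.0462 for each). The others then missed it, with Serpinb3a at 0.0519, Lhpp at 0.067, Gm7627 at 0.0746, Med27 and Phb2 at 0.0794 and Chtop at 0.126.

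Med27, a subunit of the Mediator complex that links transcription factors to RNA polymerase II, was the most abundant of these 8 genes. Its levels were 52.3 and 103.7 FPKM in the controls and 401.5 and 394.5 FPKM after knockdown, a rise of 2.42 ± 0.35 (log2, SE, n = 2 per group; adjusted p = 0.027). In MII oocytes Med27 averaged 634.5 FPKM, so the knockdown libraries lay between oocyte and control 2-cell embryos. Serpinb3a, a serine protease inhibitor of the ovalbumin type, was at 1.97 and 1.15 FPKM in the controls and at 11.7 and 15.2 FPKM after knockdown (log2 change 2.51 ± 0.36, adjusted p = 0.027). Its oocyte mean was 12.5 FPKM, between the knockdown libraries.

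The 6 that fell belong to different functions. Phb2, a prohibitin of the inner mitochondrial membrane and a mitophagy receptor, was at 31.8 and 49.1 FPKM in the controls and at 3.32 and 1.01 FPKM after knockdown (log2 change -3.78 ± 0.62, adjusted p = 0.0371). Chtop, a chromatin-bound factor of the TREX mRNA export complex, was at 44.1 and 81.8 FPKM against 4.48 and 4.08 FPKM (-3.53 ± 0.61, adjusted p = 0.0479). Both were low in MII oocytes, with means of 1.15 FPKM for Phb2 and 6.19 FPKM for Chtop. The control levels of both stood above the oocyte, as did Phb2 in Ago2 kd replicate 1. Prmt2, an arginine methyltransferase, showed 35.9 and 24.0 FPKM in the controls and 1.47 and 2.42 FPKM after knockdown (-3.39 ± 0.41, adjusted p = 0.0135). Lhpp, a phosphatase acting on histidine phosphorylation, was at 35.8 and 30.1 FPKM against 4.81 and 5.78 FPKM (-2.43 ± 0.38, adjusted p = 0.0304). The oocyte mean of Prmt2 was 39.5 FPKM, above all 4 libraries, whereas Lhpp in the controls exceeded its oocyte mean of 3.87 FPKM. The remaining pair, Gm13084 and Gm7627, are predicted genes without a function known here, at 21.4 and 31.6 against 3.43 and 1.61 FPKM (adjusted p = 0.0203) and at 14 and 17.2 against 3.92 and 4.39 FPKM (adjusted p = 0.0493).

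**Figure D2:**
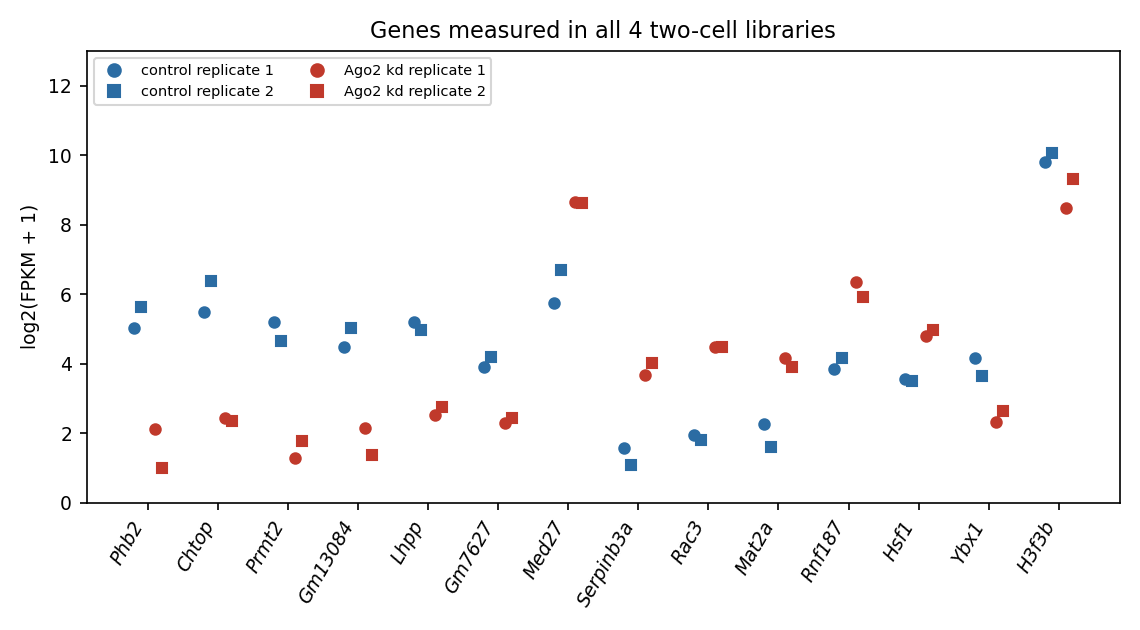
Points are log2(FPKM + 1) of single libraries for the 9 genes at 1 FPKM or more in all 4 two-cell libraries that passed adjustment, ordered by change, followed by Mat2a, Rnf187, Hsf1, Ybx1 and H3f3b. Controls are blue, Ago2 kd libraries red, and in every gene shown the groups do not overlap. Rac3 carries the same value, 21.2 FPKM, in both Ago2 kd libraries.

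Further genes measured in every library missed adjustment narrowly or clearly. Mat2a, which makes the methyl donor S-adenosylmethionine, was at 3.85 and 2.06 FPKM in the controls and at 17.1 and 14 FPKM after knockdown (log2 change 2.1 ± 0.37, adjusted p = 0.0506). Rnf187, a RING-type ubiquitin ligase, was at 13.3 and 17.0 FPKM against 81.3 and 59.9 FPKM (2.14 ± 0.47, adjusted p = 0.109). Psmd3, a lid subunit of the 26S proteasome, was at 12.9 and 2.88 FPKM against 34.4 and 67.0 FPKM (2.74 ± 0.64, adjusted p = 0.129). All 3 were called higher at the unadjusted threshold and stayed so with any 1 two-cell library left out. Among the lower genes, Il7, which encodes the lymphocyte growth factor interleukin 7, was at 49.4 and 50.9 FPKM against 2.48 and 13.5 FPKM (-2.84 ± 0.64, adjusted p = 0.12). Wdr20, a cofactor of the deubiquitinases Usp12 and Usp46, was at 22.5 and 23.9 FPKM against 1.62 and 4.32 FPKM (-2.69 ± 0.67, adjusted p = 0.155). The groups of each of these 5 genes did not overlap. Larger fitted changes with a wide spread were Brdt, a bromodomain protein of the germ line, at 2.14 and 80.9 FPKM in the controls against 493.3 and 634.3 FPKM (adjusted p = 0.473), whose change was 5.13 and became 2.78 without control replicate 1, and Gm5946, at 240.3 and 203.8 against 10.2 and 6.58 FPKM (adjusted p = 0.414). The call of Brdt was also lost without either Ago2 kd library, and that of Gm5946 without any 1 of the 4 libraries (log2 changes from -4.87 to -4.31).

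The machinery through which AGO2 silences transcripts was mostly below the level tested, since 6 of 20 measured genes of the small RNA pathway passed the filter. Tnrc6b, the partner that links Argonaute to deadenylases, was called higher, at 0.614 and 1.57 FPKM in the controls and 4.31 and 5.42 FPKM after knockdown (log2 change 1.52 ± 0.33, adjusted p = 0.105). The oocyte mean was 9.30 FPKM. Eri1, an exonuclease that trims small RNAs, was at 7.38 and 0 FPKM in the controls and at 10.2 and 9.75 FPKM after knockdown and was not called. Tsnax and Snd1, which belong to nucleases of the silencing complex, and the Hsp90 genes that help load Argonaute had overlapping groups.

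The study's supplementary predictions pair 7 of the genes called here with microRNAs, 21 of which matched a RefSeq mature sequence (GRCm38.p6) and 4 of which did not. The sequences that follow are shown because AGO2 selects targets through the seed, bases 2 to 8, printed in capitals, and because 1 seed was paired with genes that moved in opposite directions. With Tnrc6b were paired miR-15a-5p and miR-16-5p, which share a seed and lie together at chr14:61632075-61632096 and chr14:61631936-61631957 on the minus strand, and miR-19a-3p at chr14:115044048-115044070 on the plus strand.
miR-15a-5p: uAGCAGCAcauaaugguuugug
miR-16-5p: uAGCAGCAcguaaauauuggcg
miR-19a-3p: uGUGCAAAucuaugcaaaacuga
The members of the miR-200 family shown next, at chr6:124717917-124717938 and chr4:156054911-156054932 on the minus strand, share their seed and were paired both with Tnrc6b, which was called higher, and with Myh10, a non-muscle myosin heavy chain, which fell.
miR-141-3p: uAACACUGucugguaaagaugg
miR-200a-3p: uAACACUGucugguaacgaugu
Myh10 was at 2.93 and 2.64 FPKM in the controls and at 0.261 in each Ago2 kd library when rounded (log2 change -1.58 ± 0.27, adjusted p = 0.0455). Also paired were miR-204-5p with Pid1, an adaptor of lipoprotein receptor signalling, and miR-350-3p with the corepressor Ctbp2.
miR-204-5p: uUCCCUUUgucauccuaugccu
miR-350-3p: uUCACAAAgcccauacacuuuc
Pid1 was called higher, at 1.29 and 4.97 FPKM against 13.9 and 14.2 FPKM, and Ctbp2 fell, with 45.3 and 53.3 FPKM in the controls and 0.294 and 0.211 FPKM after knockdown (adjusted p = 0.00197). The pairs are predictions held here in shortened form, the study drew them from genes it had selected with these libraries, and no microRNA level was measured here.

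Genes of deadenylation, the shortening of the poly(A) tail with which decay of maternal transcripts begins, moved singly. Of 17 tested, 1 was called higher and 1 lower (5.88% each, beside 4.13% and 4.59% of all genes), with a list median of 0.06. Tob1, which tethers the CCR4-NOT deadenylase to transcripts, was listed at 0 in both controls and reached 5.73 and 6.02 FPKM after knockdown (adjusted p = 0.0286). Cnot8, a catalytic subunit of CCR4-NOT on chr11:58104153-58118594, fell, with 194.6 and 140.5 FPKM in the controls and 1.17 and 0.928 FPKM after knockdown (adjusted p = 0.000408), while its close paralog Cnot7 overlapped at 190.8 and 109.3 against 143.2 and 101.8 FPKM. The abundant adaptor Btg4, at 8212 and 7265 FPKM in the controls and 6520 and 7517 FPKM after knockdown, and the deadenylase-like Angel2, at 277 and 233 against 265.6 and 264.5 FPKM, had overlapping groups.

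Of 27 tested genes of decapping, P-bodies and m6A, 1 was called in each direction (3.7% each, beside 4.13% and 4.59% of all genes), with a median of -0.10. The m6A reader Ythdf3 was listed at 0 in both controls and at 98.9 and 41.0 FPKM after knockdown (adjusted p = 0.0464). Ybx1, a cold-shock protein that packages and stabilizes mRNA, was called lower, at 17.1 and 11.5 FPKM against 4.06 and 5.19 FPKM (log2 change -1.42 ± 0.34, adjusted p = 0.136). The decapping activator Dcp1a, a P-body marker, was at 47.7 and 26.7 FPKM in the controls but at 77.0 and 0 FPKM in the knockdown libraries, which therefore gave no common direction, and Dcp2 overlapped. In the list of nonsense-mediated decay and exosome genes, 17 were tested and 1 was called in each direction (5.88% each). Exosc9, a ring subunit of the RNA exosome, was higher at 1.35 and 1.11 against 9.91 and 5.99 FPKM (1.97 ± 0.51, adjusted p = 0.177).

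The antiviral list had 10 tested genes. Oas1c, of the 2'-5' oligoadenylate synthetase family that senses double-stranded RNA, was listed at 0 in both controls and at 260.6 and 259.3 FPKM after knockdown, the lowest adjusted p of the comparison at 7.81e-05. Its position is chr5:120800194-120812514, within a cluster of near-identical Oas1 paralogs between which reads can be split, so this level is uncertain. Of the paralogs, Oas1d was at 266.1 and 287.4 against 287.2 and 385.6 FPKM, Oas1e at 189.5 and 173.8 against 254.4 and 293.7 FPKM, and Oas1h at 75.4 and 84.4 against 70.2 and 177 FPKM. None of these 3 was called, and Oas1e alone had groups that did not overlap. The interferon-linked Ifitm3, Irf1, Mavs and Bst2 had overlapping groups, with log2 changes between -0.13 and 0.09.

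Maternal-effect genes include the subcortical maternal complex that the embryo needs to pass its first divisions. Their list median lay above both controls in both knockdown libraries, narrowly so in Ago2 kd replicate 1. Of 24 tested, 4 were called higher and none lower (16.7% against 4.13% of all genes). Both Ago2 kd libraries lay above both controls for 9 genes, 37.5% against 16.0%, and below for 1. The list median was 0.30, with 0.13 in Ago2 kd replicate 1 and 0.45 in replicate 2 relative to the mean of the controls, while the controls themselves differed by 0.23. None of the 24 passed adjustment. Of the 4 called genes, 3 (Tle6, Khdc3 and Trim28) reached 1 FPKM in both knockdown libraries but not in both controls, so they were tested because they were high after knockdown. Neither the shares nor the list medians, which include them, support a direction. Among the 17 members at 1 FPKM or more in all 4 libraries, 1 was called higher and none lower, 6 lay above both controls and 1 below, and the median was 0.18. Medians of single libraries were not taken for these 17.

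Tle6, a member of the subcortical maternal complex, was at 0.672 and 0.805 FPKM in the controls and at 49.4 and 7.52 FPKM after knockdown (log2 change 3.58 ± 0.84, adjusted p = 0.129). Khdc3, another member, which also guards genome integrity, was at 1.01 and 0 FPKM against 6.36 and 10.9 FPKM (2.72 ± 0.54, adjusted p = 0.0813). Trim28, the corepressor that protects imprints, was at 0.698 and 1.64 FPKM against 6.82 and 12 FPKM (2.25 ± 0.60, adjusted p = 0.192). These 3 were far more abundant in MII oocytes, with means of 117.8, 54.6 and 29.1 FPKM, so each knockdown level lay between the control embryos and the oocyte. Hsf1, the heat shock factor stored by the oocyte, was at 10.8 and 10.4 FPKM against 26.9 and 30.1 FPKM (1.34 ± 0.41, adjusted p = 0.286), above its oocyte mean of 10 FPKM. Other members showed small or mixed differences. Nlrp14 was at 263 and 200.2 against 464.4 and 453.6 FPKM and Padi6 at 78.1 and 89.4 against 138.2 and 125.3 FPKM, both without overlap and neither called, whereas Nlrp5, the defining member of the complex, was lower at 8.83 and 16.7 against 4.87 and 6.21 FPKM and was not called (-1.02 ± 0.46, adjusted p = 0.607), although it passed the unadjusted threshold without control replicate 1 (-1.45). Npm2, at 350.1 and 341.1 against 384.8 and 399.4 FPKM, and Ooep, at 68.6 and 69.5 against 58.0 and 91.6 FPKM, did not differ beyond the spread by the test.

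Oocyte growth, zona pellucida and meiosis genes leaned higher by little. None of 29 was called, 10 lay above both controls and 3 below (34.5% and 10.3%, beside 16.0% and 17.2% of all genes), and the medians were 0.11 and 0.19 in the 2 knockdown libraries. Gdf9, the oocyte growth factor, was at 143.2 and 127.3 against 181 and 179.9 FPKM, and the transcription factor Nobox at 40.6 and 35.9 against 43.6 and 70.7 FPKM. Bmp15, the partner of Gdf9, went the other way at 787.1 and 436.1 against 392.1 and 315.6 FPKM.

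Genes of the mitochondrial genome stood lower in both knockdown libraries. Of the 13 protein-coding genes, 8 lay below both controls (61.5% against 17.2% of all genes) and none above, and 2 were called lower (15.4% against 4.59%). The list median was -0.69, with -1.10 in Ago2 kd replicate 1 and -0.26 in replicate 2, while the median difference between the controls was -0.02. None passed adjustment.

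The cytochrome b gene mt-Cytb was the most abundant, at 4017 and 3773 FPKM in the controls and 1644 and 3362 FPKM after knockdown. The oxidase subunit mt-Co1 was at 1564 and 1588 against 826.9 and 1150 FPKM, and mt-Nd4, a subunit of complex I, at 458.4 and 459.4 against 213.6 and 336.5 FPKM. In each of these genes replicate 1 was the lower of the knockdown libraries. The call of mt-Nd4 (log2 change -0.77 ± 0.28, adjusted p = 0.445) was lost without Ago2 kd replicate 1, at -0.45, and without either control, at -0.77. The other call, mt-Co3, rested on levels of 4.28 and 1.35 against 0.48 and 0 FPKM and was lost without control replicate 1, at -0.95, or Ago2 kd replicate 2, at -1.25. The exceptions were mt-Nd1, at 1178 and 800.5 against 1087 and 887.4 FPKM, mt-Nd6, mt-Atp8, mt-Co2 and mt-Atp6, all with overlapping groups. Mitochondrial transcripts took 5.34% and 4.87% of the summed FPKM in the controls and 3.04% and 4.2% after knockdown. Nuclear copies of mitochondrial sequence can share these reads, and low levels such as those of mt-Co2 and mt-Co3 beside mt-Co1 are uncertain for that reason.

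**Figure D3:**
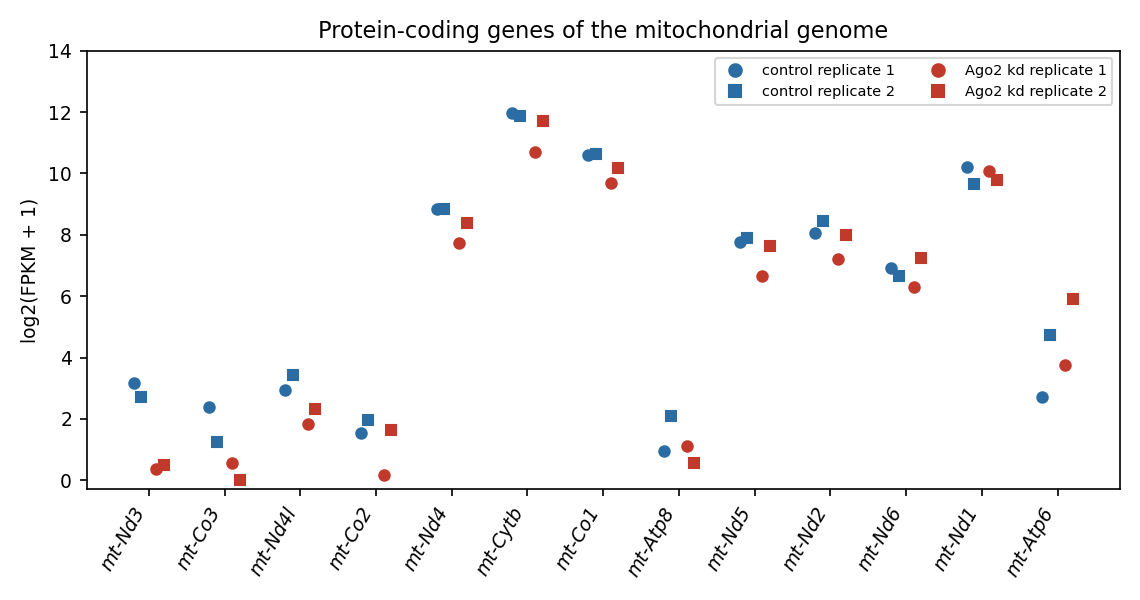
Points are log2(FPKM + 1) of single 2-cell libraries for the 13 protein-coding genes of the mitochondrial genome, ordered by change, with controls in blue and Ago2 kd libraries in red. Both red points lie below both blue points in 8 genes, and the circle, Ago2 kd replicate 1, is usually the lower one.

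At the 4-cell stage the same list had a median change of 1.04 in the opposite direction. The nuclear genes of oxidative phosphorylation did not show the 2-cell pattern in both libraries. Of 41 tested, none was called higher and 1 lower, 7 lay below both controls and none above, and the medians were -0.45 in Ago2 kd replicate 1 and 0.25 in replicate 2. Nuclear genes for mitochondrial proteins passed adjustment in both directions. Chdh, a choline dehydrogenase of mitochondria, was listed at 0 in both controls and at 9.96 and 3.14 FPKM after knockdown (adjusted p = 0.0336). Timm21, of the inner membrane translocase, was at 9.99 and 8.20 FPKM in the controls and Chchd6, of the cristae-organizing complex, at 6.53 and 8.66 FPKM, and after knockdown neither had a value above 0 (adjusted p = 0.0028 in each case).

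Ubiquitin ligases changed by single members. In the CTLH complex, an E3 ligase that removes maternal proteins at this transition in other animals, 3 of 8 tested genes were called lower and none higher. That was 37.5% lower beside 4.59% of all genes, and the medians were -0.76 and -0.21 in the 2 knockdown libraries. Maea and Ranbp9 reached 1 FPKM only in the controls, so they were tested because they were high there. Neither the share nor the medians, which include them, support a direction. Maea, the catalytic RING subunit of the complex, was at 184.7 and 150.4 FPKM against 0.293 and 0.302 FPKM (log2 change -7.01 ± 1.48, adjusted p = 0.0996). Ranbp9, a scaffold subunit, was at 38.6 and 58.9 FPKM and listed at 0 in both knockdown libraries (adjusted p = 0.174, and 0.00234 in the 8 embryo libraries). Other subunits did not share this direction. Gid8 was at 12.2 and 13.5 against 17.3 and 16.8 FPKM and Armc8 at 1.48 and 0.379 against 7.38 and 2.64 FPKM, and among the 4 members at 1 FPKM or more in all libraries 1 was called lower, none higher, and the median was 0.27. The third call, Rmnd5b, was lost without control replicate 1 (-0.92) or Ago2 kd replicate 1 (-1.47).

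Among 67 F-box, cullin and adaptor genes, 4 were called higher and 5 lower (5.97% and 7.46%, beside 4.13% and 4.59% of all genes). The oocyte-specific F-box genes split, with Fbxw21 listed at 0 in both controls and at 12.6 and 12 FPKM after knockdown (adjusted p = 0.0203), and Fbxw19 lower, at 5.25 and 19.4 against 0.145 and 0.023 FPKM (adjusted p = 0.0479). This family is a cluster of close copies, and reads can be split between them. Outside these lists the ligase Hace1 was listed at 0 in both controls and at 4.94 and 6.49 FPKM after knockdown (adjusted p = 0.00398). Ngly1, which removes sugar chains from proteins bound for degradation, rose from 0.352 and 0.685 FPKM to 47.9 and 47.0 FPKM (log2 change 5.00 ± 0.34, adjusted p = 0.00197), below its oocyte mean of 96.6 FPKM.

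Translation factors were called equally in both directions, 2 higher and 2 lower of 30. The median was 0.27, with 0.08 in Ago2 kd replicate 1 and 0.30 in replicate 2 and a difference of -0.11 between the controls. Both knockdown libraries lay above both controls for 7 genes (23.3% beside 16.0% of all genes) and below for 3 (10% beside 17.2%), and the median of the 17 genes measured in every library was 0.11. Eif4a2, an RNA helicase of translation initiation that also acts in microRNA-mediated repression, fell from 44.7 and 72.7 FPKM to 0.788 and 1.05 FPKM (log2 change -4.92 ± 0.53, adjusted p = 0.00761). Eif5b, which joins the ribosomal subunits, was at 0.0747 and 0.106 FPKM against 21 and 24.5 FPKM, and its call was lost whichever library was left out, with values from 4.33 to 4.55. The cap-binding Eif4e3 was at 61.6 and 61.3 against 138.8 and 110 FPKM, and lost its call without control replicate 1 (1.0), control replicate 2 (0.99) or Ago2 kd replicate 1 (0.83).

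Ribosome biogenesis and RNA polymerase I and III genes had no call higher and 4 lower of 38 tested, 10.5% against 4.59%, but the medians were -0.49 and 0.05 and the controls differed by -0.39, so the shift was not shared by both libraries. Polr3k, a small subunit of RNA polymerase III, fell from 19.7 and 23.3 FPKM to 0.307 and 0.102 FPKM (log2 change -4.22 ± 0.33, adjusted p = 0.0028). Gtf3a, which directs polymerase III to the 5S RNA genes, was listed at 0 in both controls and at 5.26 and 7.04 FPKM after knockdown (adjusted p = 0.0209). None of 25 cytoplasmic ribosomal protein genes was called.

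Genes of mRNA export and of vesicle transport passed adjustment singly. Alyref, an adaptor of mRNA export in the same TREX pathway as Chtop, was at 5.77 and 4.88 FPKM in the controls and had no value above 0 after knockdown (adjusted p = 0.0286). Of 33 nuclear pore and transport genes, 1 was called higher and 3 lower, 3.03% and 9.09% of them beside 4.13% and 4.59% of all genes. Alyref and Ranbp9, 2 of the lower calls, reached 1 FPKM only in the controls. They were tested because they were high there, and the share supports no direction. Among the 18 members at 1 FPKM or more in all 4 libraries 1 was called higher and none lower, 3 lay above both controls and 5 below, and the median was 0.11. Copb2, a subunit of the COPI coat that returns proteins from Golgi to endoplasmic reticulum, fell from 19 and 17.6 FPKM to 0.297 and 0.273 FPKM (log2 change -3.91 ± 0.36, adjusted p = 0.00398). The vesicle traffic list as a whole had 4 called higher (Tmed9, Chmp7, Vps37a and Sec61g) and 2 lower of 125 (3.2% and 1.6%, beside 4.13% and 4.59% of all genes). To each side of the controls lay 21 genes (16.8%, beside 16.0% above and 17.2% below for all genes). Emc3, the insertase subunit of the endoplasmic reticulum membrane complex, fell from 23.7 and 49.9 FPKM to 1.13 and 0.312 FPKM (log2 change -4.41 ± 0.42, adjusted p = 0.00433).

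Chromatin and transcription regulators moved in both directions. Of 17 Polycomb genes, Scmh1 was called higher and Bmi1 and Cbx2 lower (5.88% and 11.8%, beside 4.13% and 4.59% of all genes). Scmh1, of the PRC1 complex, rose from 0.862 and 0.0819 FPKM to 30.3 and 22.0 FPKM (log2 change 4.24 ± 0.65, adjusted p = 0.0286). Cbx2, a chromobox subunit of the same complex, fell from 28.4 and 10.6 FPKM to 0.106 and 0.116 FPKM (log2 change -4.06 ± 0.67, adjusted p = 0.0377). Scmh1 reached 1 FPKM only after knockdown, and Cbx2 and Bmi1 only in the controls. Each was tested because it was high in that group, so neither the shares nor the opposite directions support a pattern in the complex. Among the 9 Polycomb members at 1 FPKM or more in all 4 libraries none was called, 2 lay above both controls and none below, and the median was 0.01. Bmi1, the third of the called genes, was at 210.7 and 159.4 against 0 and 0.0674 FPKM (adjusted p = 0.286). Its call was lost without control replicate 1 (-7.28) or Ago2 kd replicate 1 (-7.43), but in the 8 embryo libraries, without the MII pair whose split is uncertain, it passed adjustment (adjusted p = 0.00216). Nrf1, an activator of nuclear genes for mitochondrial respiration, rose from 1.43 and 0.515 FPKM to 30.1 and 36.4 FPKM (log2 change 4.15 ± 0.43, adjusted p = 0.00618), although MII oocytes averaged only 0.554 FPKM. Csrnp2, a nuclear protein with transcription activator properties, was listed at 0 in both controls and at 32.8 and 39.8 FPKM after knockdown (adjusted p = 0.00563). Ctbp2, the corepressor described above, and Pole3, a histone-fold subunit of DNA polymerase epsilon that fell from 35.8 and 44.5 FPKM to 0.269 and 0.413 FPKM (log2 change -4.93 ± 0.41, adjusted p = 0.0028), were abundant in MII oocytes, with means of 417.6 and 333.8 FPKM.

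Among 28 pluripotency and lineage factors, 2 were called higher and 1 lower (7.14% and 3.57%, beside 4.13% and 4.59% of all genes). Sall4, a zinc finger factor of pluripotent cells, was at 0.337 and 0.197 FPKM against 30.7 and 3.85 FPKM (3.29 ± 0.79, adjusted p = 0.136), and Nfya, a pioneer factor of the first transcription wave, at 10.5 and 20.8 against 0.655 and 0.90 FPKM (-3.16 ± 0.77, adjusted p = 0.148). Histone genes and chaperones numbered 25, with 3 called higher and 2 lower (12% and 8%, beside 4.13% and 4.59% of all genes). Above both controls lay 9 and below 4 (36% and 16%, beside 16.0% and 17.2% of all genes). The list medians were -0.05 in Ago2 kd replicate 1 and 0.23 in replicate 2, so the libraries shared no direction. H3f3b, a gene for the replacement histone H3.3, was at 897.1 and 1068 against 355 and 635.9 FPKM (-1.04 ± 0.35, adjusted p = 0.38). This call was lost without Ago2 kd replicate 1 (-0.62) or control replicate 2 (-0.92).

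Genes of the centrosome and cilium counted 3 called higher and none lower of 20 tested (15.0% against 4.13%). The medians were 0.42 in each knockdown library, although the median of the mean change was 0.02, since different genes were high in each library. Ift81, Ift46 and Cep164, the 3 called, reached 1 FPKM in both knockdown libraries but not in both controls, so they were tested because they were high after knockdown and their share supports no direction. Among the 8 members measured in every library none was called, 1 lay above both controls and 1 below, and the median was -0.11. Ift81 and Ift46, of the intraflagellar transport complex B, were at 0.146 and 0.176 against 2.84 and 2.16 FPKM and at 1.35 and 0.453 against 4.56 and 9.42 FPKM. Cep164, of the centriole's distal appendages, was at 0.22 and 0.218 against 2.88 and 1.73 FPKM. The adjusted p was 0.0714 for Ift81 (0.0332 in the 8 embryo libraries), 0.0804 for Ift46 and 0.0996 for Cep164. For the mitotic spindle and kinetochore, 55 genes gave 1 call higher and 4 lower (1.82% and 7.27%, beside 4.13% and 4.59% of all genes), with medians of -0.07 and -0.02. Esco1, a cohesin acetyltransferase, at 49.0 and 59.9 FPKM, and Cenpw, of the inner kinetochore, at 13.1 and 9.33 FPKM in the controls, were both listed at 0 in both knockdown libraries (adjusted p = 0.134 and 0.0972). These 2 and Cenpm, another of the lower calls, reached 1 FPKM only in the controls. They were tested because they were high there, and the share supports no direction. Among the 33 spindle and kinetochore members measured in every library none was called, 4 lay above both controls and 6 below, and the median was -0.12.

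Signalling kinases had no call higher, beside 4.13% of all genes, and 3 lower of 35 (8.57% beside 4.59%). Pdpk1 and Gsk3b reached 1 FPKM only in the controls, so they were tested because they were high there and the share supports no direction. Pdpk1, the kinase that activates Akt, fell from 7.92 and 19.7 FPKM to 0.583 and 0.573 FPKM (log2 change -3.11 ± 0.47, adjusted p = 0.0286). Gsk3b, a kinase inhibited by Akt, was at 2.53 and 4.63 FPKM and listed at 0 in both knockdown libraries (adjusted p = 0.0565). In metabolism, the glycolytic aldolase Aldoa fell from 9.38 and 19.7 FPKM to 0.216 and 0.0365 FPKM (log2 change -3.71 ± 0.42, adjusted p = 0.00945). Of 33 genes of lipid and peroxisome metabolism, 3 were called higher and 2 lower (9.09% and 6.06%, beside 4.13% and 4.59% of all genes). Pex11a, which promotes peroxisome division, rose from 0.326 and 1.60 FPKM to 14.9 and 16 FPKM (log2 change 3.15 ± 0.47, adjusted p = 0.0277), below its oocyte mean of 33.5 FPKM. The cystine transporter Slc7a11, needed for glutathione synthesis, rose from 0.107 and 1.13 FPKM to 11.4 and 9.24 FPKM (log2 change 2.88 ± 0.39, adjusted p = 0.0209), with an oocyte mean of 12.4 FPKM.

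Genes of the 2-cell transcription burst showed no direction common to both knockdown libraries. Of 33 tested, 1 was called higher and 2 lower (3.03% and 6.06%, beside 4.13% and 4.59% of all genes). Above both controls lay 4 and below 7 (12.1% and 21.2%, beside 16.0% and 17.2%), and the median was -0.38. It was -0.67 in Ago2 kd replicate 1 and -0.06 in replicate 2, and the controls differed by -0.55. The deubiquitinase copies Usp17la and Usp17lb were lower, at 19.1 and 20.2 against 0 and 4.27 FPKM and at 54.5 and 81.9 against 26.7 and 25.1 FPKM, while Usp17lc was higher at 12.2 and 10.1 against 22.1 and 21.6 FPKM. These are near-identical copies between which reads can be split. The retrotransposon-linked factor Zfp352, at 197.2 and 290.4 against 96.5 and 249.7 FPKM, and Duxf3, the Dux transcription factor, at 6.20 and 4.94 against 13.2 and 2.20 FPKM, overlapped. Of 16 Obox homeobox genes, 1 was called in each direction, with medians of -0.90 and 0.15.

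**Figure D4:**
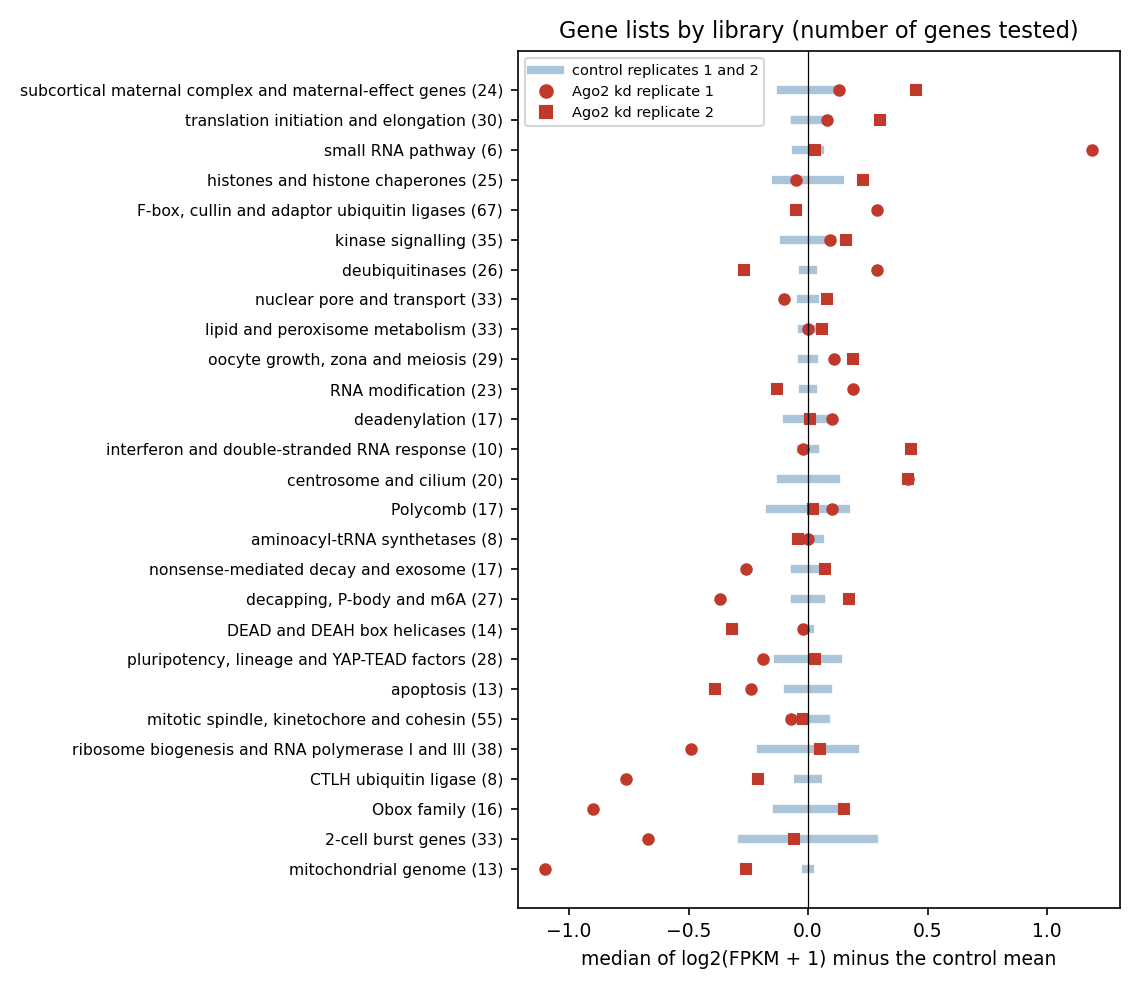
Each row is a gene list with the number of genes tested. Red symbols give the list median of log2(FPKM + 1) minus the mean of the controls in each Ago2 kd library, and the blue bar spans the median difference between the controls, centred on 0. Both red symbols lie left of the bar for the mitochondrial genome, at -1.10 and -0.26, and right of it for the maternal-effect genes, at 0.13 and 0.45, while those of the 2-cell burst genes fall at -0.67 and -0.06. The maternal-effect medians include Tle6, Khdc3 and Trim28, which were tested because they were high after knockdown.

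Over 48 lists with at least 8 tested genes, the medians of both knockdown libraries lay above both controls in 7 and below both in 4, and 37 had no such common direction. Over all 5419 genes these medians were -0.14 in Ago2 kd replicate 1 and 0.11 in replicate 2. A list near 0 could count as moved where its controls hardly differed. The helicases below, at -0.02 in replicate 1, stood above the median of all genes there, and the phosphatases, at 0.02 in replicate 2, stood below it. The lists of maternal-effect, centrosome, CTLH and mitochondrial genome genes carry the limits given above. Higher lists besides those described were KRAB-type zinc finger genes, with 5 called higher and 2 lower of 90 (5.56% and 2.22%), RING and TRIM proteins, with 4 and 2 of 66 (6.06% and 3.03%), and protein phosphatases, with none higher and 2 lower of 40 (5.0%), beside 4.13% and 4.59% of all genes. The 50 KRAB-type genes at 1 FPKM or more in all 4 libraries did not share this direction. Of them 1 was called higher and 2 lower, 14 lay above both controls and 13 below, and the median was -0.08. The median was 0.09 for the 39 RING and TRIM genes of that kind and 0.07 for the 30 phosphatase genes. Lower lists were the mitochondrial genome, the CTLH complex, DEAD and DEAH box helicases (medians -0.02 and -0.32) and apoptosis genes (medians -0.24 and -0.39). Of 13 apoptosis genes none was called higher and 1 lower (7.69% beside 4.59% of all genes). This was Casp2, an initiator caspase, at 1.60 and 2.00 FPKM against 0.285 and 0.296 FPKM, which lost its call without control replicate 2 (-1.01). Casp2 reached 1 FPKM only in the controls, so it was tested because it was high there and the share supports no direction. Among the 6 apoptosis members at 1 FPKM or more in all 4 libraries none was called, 1 lay above both controls and 1 below, and the median was -0.29.

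Tested genes were also sorted by their course in libraries outside the comparison, from MII oocytes to 4-cell controls. Of 2280 genes that dropped by at least 1 log2 unit, 105 were called higher and 87 lower after knockdown (4.61% and 3.82%), and 462 lay above both controls against 340 below (20.3% and 14.9%). Sorting by the log2 of the MII mean moved 86 genes to another class and left 107 higher and 91 lower of 2333 dropped genes and 26 and 77 of 1479 gained genes. The median change of the dropped genes was 0.06, with 0.0 and 0.15 in the 2 knockdown libraries. Of 1512 genes that gained by at least 1 log2 unit, 26 were called higher and 77 lower (1.72% and 5.09%), and 137 lay above both controls against 331 below (9.06% and 21.9%). The median of the gained genes was -0.23, but it was -0.49 in Ago2 kd replicate 1 and 0.05 in replicate 2, and the controls differed from each other by -0.40. Of all genes 4.13% were called higher and 4.59% lower, so the share of gained genes called lower was near that of all genes and fewer were called higher. Of all genes 16.0% lay above both controls and 17.2% below. The median of the gained class lay below 0 in 1 of the 2 knockdown libraries. With the genes limited to those at 1 FPKM or more in all 4 libraries, 4 gained genes were called higher and 32 lower (0.472% and 3.78%, beside 1.45% and 2.64% of all such genes).

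The 4-cell libraries have their own controls and gave 377 of the same 5419 genes called higher (6.96%) and 297 lower (5.48%). Of the 224 genes higher at the 2-cell stage, 8 were also higher (3.57%) and 22 lower (9.82%) at the 4-cell stage. Of the 249 lower genes, 18 were called in each direction (7.23%). In 63 and 47 of them no 4-cell library held a value above 0, so that no change could be seen there. Among the 77 genes past adjustment, 29 were listed at 0 in all 4-cell libraries, and 7 had an unadjusted p below 0.05 at the 4-cell stage, 4 in the same direction.

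Copb2, Aldoa and Alyref fell at the 2-cell stage and were lower again in the separate 4-cell libraries. Copb2 was at 26.6 and 40.5 FPKM in the 4-cell controls and 0.361 and 0.397 FPKM after knockdown (log2 change -4.62), close to the pattern of the 2-cell libraries. Aldoa was at 12.1 and 7.6 FPKM and Alyref at 31.3 and 65.2 FPKM in the 4-cell controls, and both were listed at 0 in both knockdown libraries. All 3 were near 0 in MII oocytes, with a mean of 0.556 FPKM for Copb2 and no value above 0 for the others. The direction turned for Nrf1, at 69.3 and 105.8 FPKM in the 4-cell controls against 3.69 and 3.10 FPKM, for Csrnp2, at 5.56 and 17.6 FPKM and then listed at 0 in both, and for Pdpk1, at 0.0923 and 0.144 against 8.71 and 6.50 FPKM. The test of the difference between stages passed adjustment for these 3 (adjusted p = 0.00349, 0.00712 and 0.0153) and for 50 genes in all, 25 of them among the 77. In 10 of the 25 every 4-cell value was 0, and the test then only restates the 2-cell change.

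**Figure D5:**
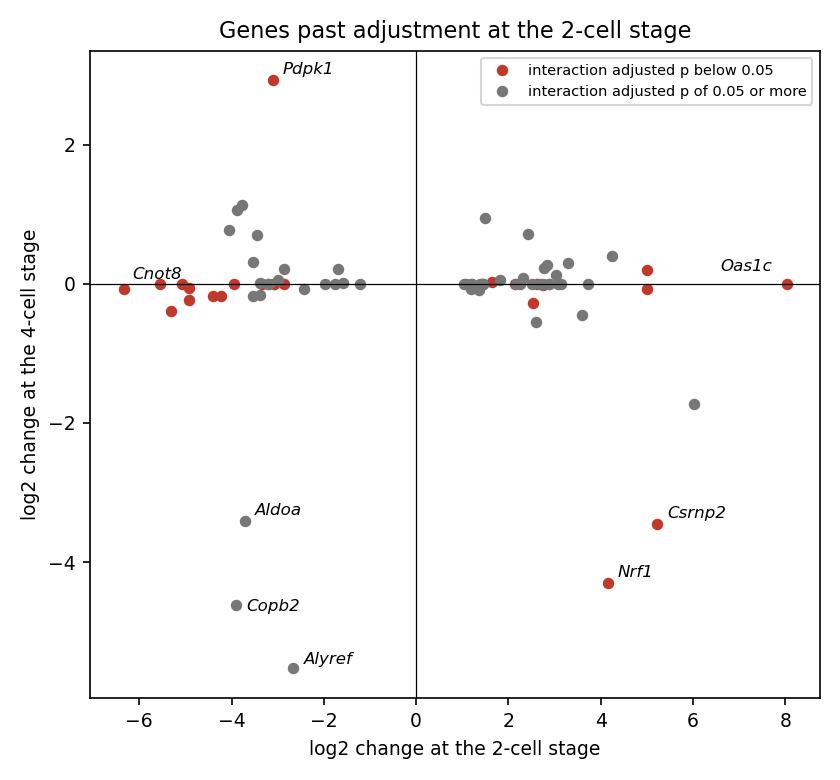
Each point is 1 of the 77 genes past adjustment at the 2-cell stage, with its log2 change (Ago2 kd minus control) at the 2-cell stage on the x axis and at the 4-cell stage on the y axis. Red points have an adjusted p below 0.05 for the difference between stages. Most lie near 0 on the y axis, 29 of them because no 4-cell library held a value, while Copb2, Aldoa and Alyref are negative at both stages and Nrf1, Csrnp2 and Pdpk1 turn.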

How the data were processed

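RNA-seq reads of 10 libraries were checked with FastQC, trimmed with Trim Galore, aligned to GRCm38.p6 (mm10) with HISAT2 2.1.0 and counted with HTSeq-count by the authors. The deposited table gives FPKM, which the authors computed with StringTie, and no read counts. The depth of each library is therefore unknown, and precision was judged from the spread between libraries. FPKM were analysed as log2(FPKM + 1) in limma 3.58.1 (R 4.3.3), with 1 mean per group over all 10 libraries, empirical Bayes moderation with a trend on the mean, two-sided tests and Benjamini-Hochberg adjustment over the 5525 genes tested. The study used DESeq2 on counts, which was not repeated on FPKM. The fit was tested on simulated data. A fold on this scale understates changes of low genes. Gene positions came from GENCODE M21 on GRCm38 (5320 names matched once) and microRNA sequences from RefSeq.

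The comparison, the gene lists and the tests were chosen with earlier results of these data known. Named genes were those with an adjusted p below 0.05, the 12 largest rises and falls among called, non-overlapping genes at 1 FPKM or more in all 4 libraries, up to 4 called members per list, and genes the study names. Not all of them are printed. List members that were not called, and genes of lists not described by this rule, were chosen after their values were seen. Lists were described where at least 8 members were tested and the share of calls in 1 direction was at least 1.5 times the background, and those of RNA decay, small RNA, antiviral, maternal and burst genes always. Another 13 settings of pseudocount, filter, scaling, block, variance trend and libraries were tried, and 1 more was chosen after seeing the data, which left out genes with equal knockdown values. The alternatives for the 4-cell effect and the stage difference were also added later. Oocyte levels are means of the MII pair, since the split between its 2 columns is uncertain. Ago2 and some other genes were not analysed here.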

Additional observations from a re-analysis of the deposited data

Results flagged for a closer look

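For 28 of the named genes the test of the difference between the knockdown effects at the 2-cell and 4-cell stages passed (limma interaction, adjusted p below 0.05). In 10 of them (Zfyve21, Phf7, Timm21, Chchd6, 2210019I11Rik, 1810037I17Rik, Ms4a10, Dhrs2, Gm43225 and Oas1c) every 4-cell value was 0, so the value is the 2-cell change with its sign turned and shows no difference between stages. The other 18 had a value above 0 in at least 1 4-cell library. Values are the fitted 4-cell change minus the 2-cell change on the log2(FPKM + 1) scale and are no bounds where a group is listed at 0. Genes lower at the 2-cell stage gave Cnot8 6.27, Pdpk1 6.04, Zfyve21 5.56, Vimp 5.07, Ctbp2 4.93, Eif4a2 4.87, Pole3 4.71, Emc3 4.23, Tcstv3 4.23, Polr3k 4.04, Phf7 3.95, Timm21 3.33, Chchd6 3.09, 2210019I11Rik 3.09 and 1810037I17Rik 2.87. Genes higher at the 2-cell stage gave Sall4 -9.93, Csrnp2 -8.68, Nrf1 -8.46, Oas1c -8.03, Trim28 -5.54, Ngly1 -5.08, H13 -4.81, 9430015G10Rik -2.81, Hace1 -2.76, Gm43225 -2.63, Dhrs2 -2.14, Gpr19 -1.61 and Ms4a10 -1.44.

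Expression at the 4-cell stage separated these genes into kinds. Cnot8 was at 134.2 and 114.9 FPKM in the 4-cell controls and 101.4 and 136.5 FPKM after knockdown, Emc3 at 436.6 and 452.2 against 382.1 and 403.9 FPKM, and Vimp at 349.7 and 283.8 against 354.7 and 279.3 FPKM, so the levels of these 3 were similar in both groups there. Sall4 turned from higher to lower, with 105.5 and 110.4 FPKM in the 4-cell controls against 0.0929 and 0.0878 FPKM, and so did Trim28, with 35.8 and 63.6 against 7.22 and 2.04 FPKM. Tcstv3 carried the same value, 134.1 FPKM, in both 2-cell Ago2 kd libraries.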

How the results depend on the processing

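Each of the 77 genes past adjustment kept its direction and an unadjusted p below 0.05 in every alternative that tested it. Counts depended more on the setting. Without the filter on low values (20208 genes) 579 genes were higher and 422 lower at the unadjusted threshold, and with 1 FPKM required in all 4 libraries 79 and 110, against 243 and 259 of all 5525 genes. That stricter filter left 0 higher and 2 lower genes after adjustment, and the 4 two-cell libraries alone left none in either direction. Without a variance trend 26 higher genes passed. Leaving out each replicate in turn gave 244 to 362 higher and 197 to 455 lower genes unadjusted and 36 to 57 higher and 26 to 67 lower after adjustment, most of the last without Ago2 kd replicate 1.

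Genes with a stage difference past adjustment numbered 100 with a pseudocount of 0.1, 190 without the filter and 21 with the stricter one, against 50. Called genes of the same direction at both stages numbered 30, and 10 with the stricter filter, and 35 to 47 with 1 library left out, the most without control replicate 1. Uncalled genes that changed sign were Dcp1a (-5.2 to 1.09 with 1 library left out), Spin1 (-1.13 to 0.32), Ooep (-0.25 to 0.4) and Zar1 (-0.61 to 1.91), each without Ago2 kd replicate 2 and Zar1 also without control replicate 2 (-0.07). Calls were 48.4% higher, 57.8% without the filter, and 36.8% to 61.1% with 1 library left out.

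Equal replicate numbers did not pair the samples: deviations of 2-cell controls and Ago2 kd libraries correlated with r = 0.113, and those of other groups with -0.0944 to 0.0834. With the replicate block, 19 higher and 17 lower genes passed adjustment, and 32 a stage difference, while 448 of the 502 calls were shared. Depth was unknown, so levels near 0 cannot be separated from missed transcripts.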

Other observations

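Of 42 splicing genes at 1 FPKM or more in all 4 libraries, 14 lay above both controls and 4 below, beside 15.7% and 16.6% of all such genes, none was called, and the median was 0.27. Among all 64 tested splicing genes 1 was called in each direction, and the medians of 0.03 and 0.07 in the knockdown libraries lay within the difference of -0.16 between the controls. Of 14 proteasome genes of that kind, 5 lay above both controls and none below, with 1 called higher, Psmd3. Among all 21 tested proteasome genes the medians of the 2 knockdown libraries were -0.15 and 0.46, so only 1 of them stood higher.

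Among 58 tested unprocessed pseudogenes, copies left by gene duplication, 1 was called higher and 7 lower, 12.1% beside 4.59% of all genes. Both knockdown libraries lay below both controls for 20 of them and above for 4. The difference from other genes was not tested. Processed pseudogenes numbered 722, with 12 called higher and 28 lower (3.88%). Reads of pseudogenes can be shared with their parent genes, and that share was not tested.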
